A study of Mus musculus with 2 samples.

Results

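The 6 miRNA genes described here mark cells of the blood: Mir144, Mir451a and Mir486 the red cell lineage, Mir223 the myeloid lineage, Mir150 mature lymphocytes, and Mir142 white cells of most lineages. They were chosen by name, with earlier results of these data known, as 6 of the 1973 miRNA genes in the count tables. Mir142 has no row of its own in what was analysed here. Its reads were taken from the row of Mir142b, which is annotated at the same place on the other strand, as the reads opposite to Mir142b. The tissue was midbrain of healthy B6NCrl mouse embryos at embryonic day 16.5, with no genetic change or treatment named in the labels. There were 2 libraries, biological replicates 1 and 2 of 1 group, each from embryos of both sexes pooled together. Replicate 2 came from 37 embryos; the labels give no such number for replicate 1. A pool averages over embryos, so differences from embryo to embryo were not measured. The labels describe no step that removed blood from the tissue.

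miRNAs are short RNAs that guide Argonaute proteins to messenger RNAs, mostly through pairing of the seed, bases 2 to 8 from the 5′ end. Most are cut from a hairpin by Drosha and then by Dicer. Mir451a is the known exception: its short hairpin passes by Dicer and is cut by Argonaute 2, so that the mature strand runs from the stem into the loop. Mir144 and Mir451a are made from 1 primary transcript, driven by GATA1 in maturing red cells, where miR-451a helps to protect the cells against oxidative stress. At the age studied, red cells come mostly from the fetal liver, and microglia, the resident macrophages of brain, already populate the midbrain.

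The mature sequences are shown because the seed decides which messages each miRNA can pair with, and because the strand decides which gene a read is counted to. They were taken from RefSeq on GRCm38.p6, the assembly of the count tables (mm10). Of the 6 genes, 5 had at least 1 mature sequence there. Mir150 was matched by its 3p arm only, so the seed of its other arm is not shown. Seeds are in capitals.
miR-144-3p: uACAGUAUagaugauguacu
miR-144-5p: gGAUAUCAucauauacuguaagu
miR-451a: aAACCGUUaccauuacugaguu
miR-223-3p: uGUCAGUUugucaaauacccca
miR-223-5p: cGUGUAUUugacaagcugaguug
miR-150-3p: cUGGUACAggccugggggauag
miR-142a-5p: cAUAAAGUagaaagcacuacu
miR-142a-3p: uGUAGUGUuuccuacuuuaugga
miR-142b: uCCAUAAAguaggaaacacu
No seed of these 9 arms was shared with any other gene among the 1738 mature entries of the table. Mir486 and the other arm of Mir150 had no entry there. Their seeds were not compared, so whether they belong to a seed family was not tested. Over the shorter run of bases 2 to 7, miR-144-3p matched miR-101a-3p and miR-223-3p matched miR-344f-5p.

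The hairpins of the red cell pair show the difference in maturation, with the mature strands in capitals.
Mir144: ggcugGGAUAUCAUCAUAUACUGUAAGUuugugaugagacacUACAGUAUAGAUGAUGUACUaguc
Mir451a: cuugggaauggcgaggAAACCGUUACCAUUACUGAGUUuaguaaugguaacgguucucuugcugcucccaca
Mir144 has a strand on each arm, at bases 6 to 28 and 43 to 62 of its 66. Mir451a has 1 strand, at bases 17 to 38 of its 72, which covers the loop. The counts are per gene, so the arms of Mir144, Mir223, Mir142 and Mir150 could not be told apart.

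All 6 members were well above the detection limit of 10 reads in both libraries. The lowest count was 146 reads, for Mir486 in replicate 2, and the highest 1466, for the Mir142 reads in replicate 1. Levels are CPM, counts scaled to 1000000 sense-strand reads on miRNA genes. Those reads numbered 6151299 in replicate 1 and 5312642 in replicate 2, so that 1 read stood for 0.163 and 0.188 CPM. Intervals are 95% Wilson intervals, each from the count of 1 library, and cover counting error only. Reads without molecular identifiers are not independent molecules, so the intervals may be too narrow even for that error. In bulk tissue, fewer cells of a type and less miRNA per cell cannot be told apart.

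As a check of the tissue, the neuronal Mir137 stood at 15865 and 14350 CPM in replicates 1 and 2, and the brain miRNA gene Mir149 at 24868 and 26129. Of the 10 genes on the brain and neuron list that were analysed, 8 were detected, over a wide range of levels. Mir9-2, with 13 and 3 reads, and Mir124a-3, with 2 and 4 reads, were not. Mir9-3 stood at 363 and 447 CPM. The copies of the neuronal mir-124, which share sequence and can lose reads to several places, were low, with Mir124a-1 at 5.36 and 4.71 CPM. Set against the total of sense reads, the 6 members came to 0.0674% in replicate 1 (0.0654 to 0.0695). In replicate 2 they came to 0.0751% (0.0728 to 0.0775), for a mean of 0.0713% ± 0.0054 (SD, n = 2). The Mir142 reads, taken opposite to Mir142b, are not part of that total. The 5 members without them held 0.0436% and 0.0514% of sense reads.

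The red cell genes came to 222 CPM in replicate 1 and 273 CPM in replicate 2. The white cell genes (Mir223, Mir142 reads and Mir150) came to 452 and 478 CPM, above the red cell genes in both libraries. That order rests on the Mir142 reads, at 238 and 237 CPM. Without them, Mir223 and Mir150 together came to less than the red cell genes in both libraries. The red cell sum also holds Mir486, whose count is uncertain. No level here gives a number of cells, since the amount of each miRNA per cell differs between cell types. The names red cell and white cell refer to what the genes are known for. Reads of whole tissue were not assigned to cells. Whether they came from blood cells or from resident cells such as microglia was not tested.

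Mir451a (ENSMUSG00000070065.1) lies on chromosome 11 from 78073170 to 78073241 on the plus strand. It had 750 reads in replicate 1 and 956 in replicate 2, which are 122 CPM (114 to 131) and 180 CPM (169 to 192), with a mean of 151 ± 41.0 (SD, n = 2). Replicate 2 was 1.48-fold higher and the intervals did not overlap, the widest relative spread of the 6 members, with an SD of 27.2% of the mean.

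Mir144 (ENSMUSG00000065401.1), at 78073005 to 78073070, ends 99 bases before Mir451a starts, on the same strand, and lies in no annotated host gene. It had 457 and 349 reads, or 74.3 CPM (67.8 to 81.4) in replicate 1 and 65.7 CPM (59.2 to 73.0) in replicate 2, with a mean of 69.99 ± 6.08. Replicate 2 was thus slightly the lower library for Mir144, with overlapping intervals, whereas it was the higher one for Mir451a.

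Mir486 (ENSMUSG00000070084.3) lies in an intron of Ank1, the gene of erythrocyte ankyrin, on chromosome 8 from 23142555 to 23142682. It had 158 and 146 reads, at 25.7 CPM (21.98 to 30.0) and 27.5 CPM (23.4 to 32.3), with a mean of 26.6 ± 1.27. It was the least abundant member in both libraries, and its values did not differ beyond counting error. Mir486 is known from red cells and also from muscle. Mir3107 is annotated inside it on the other strand and was not analysed here. It is known as near-identical in sequence, which was not checked here, since Mir486 had no sequence entry. Reads that align to several places are not in the gene counts, so the count of Mir486 is uncertain.

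Among the white cell genes, the Mir142 reads were highest. Mir142 lies on chromosome 11 from 87756864 to 87756927, within an intron of Mir142hg on the same strand, and inside the span of Mir142b (ENSMUSG00000065420.2, 87756841 to 87756955, minus strand). There were 1466 reads in replicate 1 and 1257 in replicate 2 opposite to Mir142b, or 238 CPM (226 to 251) and 237 CPM (224 to 250), with a mean of 237 ± 1.21. The libraries agree to within 1%, and this was the highest of the 6 members in each of them. On the strand of Mir142b itself there were 0 and 1 reads, so nearly all reads at this place came from the Mir142 strand. A count of 0 allows up to 3 reads, or 0.488 CPM in replicate 1.

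Mir223 (ENSMUSG00000076066.1), which restrains the production and activity of granulocytes, lies on chromosome X from 96242817 to 96242926, in an exon of the noncoding transcript F630028O10Rik. It had 829 and 745 reads, at 135 CPM (126 to 144) and 140 CPM (131 to 151), with a mean of 137 ± 3.86. The libraries differed by less than counting error.

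Mir150 (ENSMUSG00000065495.1), which targets Myb and is high in mature lymphocytes, lies between annotated genes on chromosome 7, from 45121757 to 45121821. It had 488 and 537 reads, at 79.3 CPM (72.6 to 86.7) and 101 CPM (92.9 to 110), with a mean of 90.2 ± 15.4. Replicate 2 was 1.27-fold higher, and the intervals did not overlap.

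**Figure D1:**
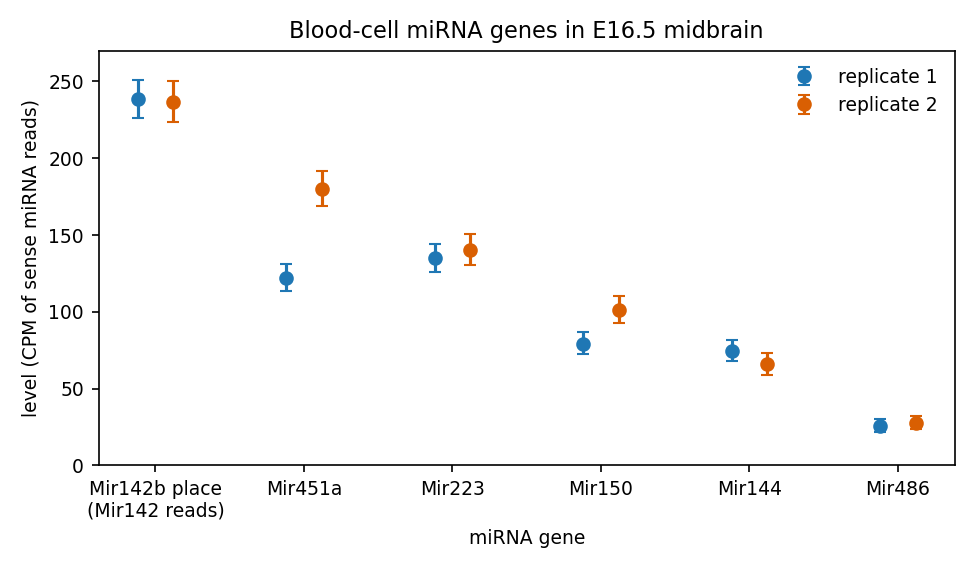
Level of each blood-cell miRNA gene (CPM of sense miRNA reads, linear axis from 0) in replicate 1 and replicate 2; points are single libraries and bars are 95% Wilson intervals of the count. Mir451a, at 122 and 180 CPM, and Mir150, at 79.3 and 101 CPM, have bars that do not overlap between the libraries.

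By mean level the order was Mir142 reads, Mir451a, Mir223, Mir150, Mir144 and Mir486. The values of Mir451a and Mir223 overlapped across the libraries: Mir451a was 0.905 times Mir223 in replicate 1 and 1.28 times in replicate 2, so their order was not settled. The other neighbours in the order kept their ranges apart, although Mir150 exceeded Mir144 by only 1.07-fold in replicate 1 and 1.54-fold in replicate 2. No test of these gaps was run.

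The members ranked from 167 for the Mir142 reads to 274 for Mir486 by mean CPM among all genes, of which 412 were detected, the Mir142 reads included. Their median of 114 CPM was close to the median of 111 CPM over the detected genes, with 3 of 6 members above it. Next to Mir451a in mean level stood Mir301b (154 CPM) and the pluripotent Mir302b (151 CPM). Mir144 stood between 2 immune genes, Mir146 (70.0 CPM) and Mir155 (67.5 CPM).

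**Figure D2:**
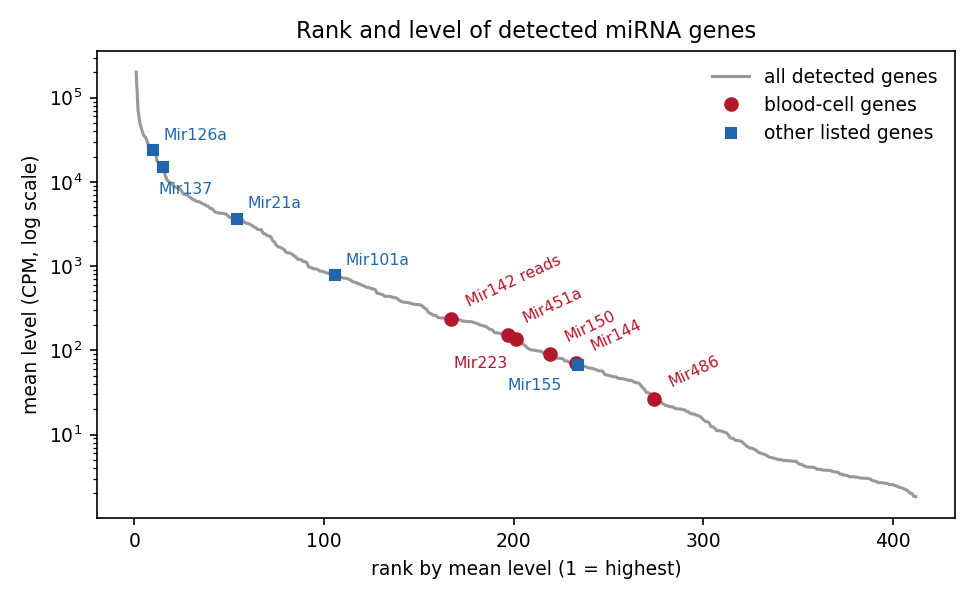
Mean CPM of each detected miRNA gene on a log scale against its rank, with the blood-cell genes as circles and 5 listed genes of other kinds as squares. The blood-cell genes occupy ranks 167 to 274, below the endothelial Mir126a at rank 10.

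Other genes of immune cells, on a list of genes tied to activation, spanned a wide range. Mir155, induced in activated lymphocytes and macrophages, had 433 and 343 reads, at 70.4 and 64.6 CPM. Mir146 (the gene of miR-146a, which dampens NF-kB signalling) stood at 59.3 and 80.8 CPM. Mir146b stood at 2.60 and 3.39 CPM and Mir147 at 11.1 and 5.84 CPM. Mir21a, expressed in many cell types besides macrophages, stood far above every blood-cell member, at 3672 and 3648 CPM. All 5 genes were detected.

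Of the 4 vessel genes analysed, 2 stood far above the blood-cell members. Mir126a, the miRNA of endothelial cells, stood at 23067 and 24810 CPM, which was 34.2 and 33.0 times the 6 members summed. The mural cell gene Mir143 stood at 6170 and 5897 CPM. Mir145a, its neighbour, stood at 100.1 and 100.5 CPM, within the range of the blood-cell genes. Mir145b had 0 reads.

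The genes of the near relatives of miR-144-3p stood at higher levels, counted per gene and not per arm. The sequences are shown to place the shared run.
miR-144-3p: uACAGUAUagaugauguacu
miR-101a-3p: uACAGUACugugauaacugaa
miR-101b-3p: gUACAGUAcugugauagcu
From the 5′ end, miR-144-3p and miR-101a-3p are the same through base 7 and part at base 8 (U8C, miR-144-3p first). In the RefSeq entry of miR-101b-3p the shared run starts 1 base later, so its seed as listed differs. Mir101a, broadly expressed in brain, stood at 785 and 779 CPM, 10.6 and 11.9 times Mir144 in the same libraries. Mir101b stood at 2074 and 1946 CPM, 27.9 and 29.6 times Mir144. For miR-223-3p, the gene of its base 2 to 7 match, Mir344f, stood at 28.1 and 18.1 CPM, below Mir223 in both libraries.

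The strand of the reads separated Mir451a from its partner. Mir451b is annotated over the same 72 bases on the minus strand, and its mature sequence has another seed.
miR-451a: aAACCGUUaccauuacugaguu
miR-451b: uGGGAGCAgcaagagaaccgu
There were 0 reads on the minus strand in either library, which allows up to 0.488 and 0.565 CPM, against 122 and 180 CPM on the strand of Mir451a. The longest run that the Mir451a hairpin shares with another hairpin of the RefSeq table, or with the reverse strand of itself, is 16 bases, with Mir451b. For Mir144, Mir142 and Mir142b that run was 13 bases and for Mir223 12, all shorter than a mature miRNA. For Mir144, Mir223 and Mir451a, the opposite strand held 0 reads in both libraries, whereas over all genes it held 2.56% and 2.49% of reads.

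The libraries were then compared gene by gene, to see which members differed by more than counting error. Each gene's reads were set against the library totals in an exact binomial test, two-sided, and p-values were adjusted over the 412 detected genes by the Benjamini-Hochberg method. This compares 2 libraries and not conditions. Over all genes 47.3% were called at an adjusted p under 0.05, 18.2% higher in replicate 2 and 29.1% higher in replicate 1. Of the calls, 75 were higher in replicate 2 and 120 in replicate 1, a split that became 90 and 95 with TMM scaling of the library sizes. Of the 6 members, 2 were called, both higher in replicate 2. Set against 47.3% in either direction and 18.2% in that direction, 2 calls among 6 genes are too few to tell the members from the background.

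Mir451a had a log2 ratio of replicate 2 over replicate 1 of 0.56, with an adjusted p of 5.88e-15 (exact binomial test). Mir150 had a log2 ratio of 0.35, with an adjusted p of 0.000346 (exact binomial test). Mir144, at -0.18, did not pass, with an adjusted p of 0.151 in the exact binomial test. The ratios of Mir486 (0.10), Mir223 (0.06) and the Mir142 reads (-0.01) had adjusted p of 0.729, 0.595 and 0.933 in the exact binomial test. The sign for the Mir142 reads flipped to 0.04 with TMM or RLE scaling. Among the 5 immune activation genes, 1 was called higher in replicate 2 (Mir146, log2 ratio 0.44), 1 higher in replicate 1 (Mir147, -0.91, from 68 and 31 reads), and 3 did not pass.

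Neither call held once a spread between pools was assumed. That spread was set and not estimated from these libraries, so the loss of the calls depends on the value chosen. When a biological coefficient of variation (BCV) of 0.1 was set in the exact test of edgeR, 0 of 6 members passed, against 2.18% of all genes, and the adjusted p was 0.294 for Mir451a and 0.716 for Mir150. At an unadjusted p under 0.05, 1 member did, Mir451a (p = 0.00963 in edgeR's exact test). At a BCV of 0.2, 0 members passed before or after adjustment, against 1.46% of all genes after it. The median size of the log2 ratio was 0.14 over the members, 0.18 over the 412 genes and 0.18 over the 102 other genes in the members' range of level.

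**Figure D3:**
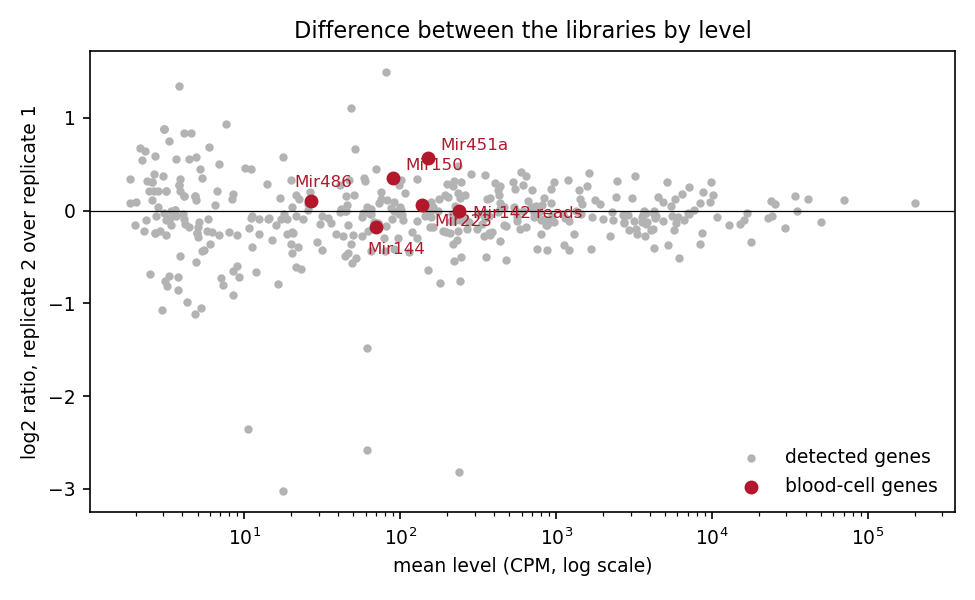
Log2 ratio of replicate 2 over replicate 1 against mean CPM (log scale) for the 412 detected genes, with the 6 blood-cell genes in red. Mir451a (0.56) and Mir150 (0.35) lie above 0, Mir144 (-0.18) below it, and the others within 0.10 of it.

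The values of the red cell genes thus did not all move in 1 direction, although only Mir451a differed by more than counting error. Whether they shift together from pool to pool was not tested, with 1 library per pool. Mir451a was 1.48-fold and Mir486 1.07-fold as high in replicate 2 as in replicate 1, and Mir144 0.884-fold. The ratio of Mir451a to Mir144 reads was 1.64 in replicate 1 (1.46 to 1.84) and 2.74 in replicate 2 (2.42 to 3.10), a mean of 2.19 ± 0.78 (SD, n = 2). The intervals, from the Wilson interval of the Mir451a share of the reads of both genes, did not overlap. That share was 62.1% in replicate 1 (59.4 to 64.8) and 73.3% in replicate 2 (70.8 to 75.6).

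For scale, the same measure was taken for other neighbouring genes, a choice made after these values were seen. Detected miRNA genes next to each other on 1 strand and within 5 kb formed 104 pairs, many of which share a primary transcript. The log2 ratios of the genes of a pair differed by a median of 0.14. For Mir144 and Mir451a the difference was 0.74, and 5 of the 104 pairs differed by more, each with a gene of fewer than 20 reads in some library. Among the 64 pairs with 300 or more reads for both genes in both libraries, the red cell pair had the largest difference. The next was Mir181a-2 and Mir181b-2, at 0.61. The cut of 300 reads lies just below the lowest count of the red cell pair, 349 reads. Pairs that share a gene are not independent, and no test was made of the difference of the red cell pair.

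**Figure D4:**
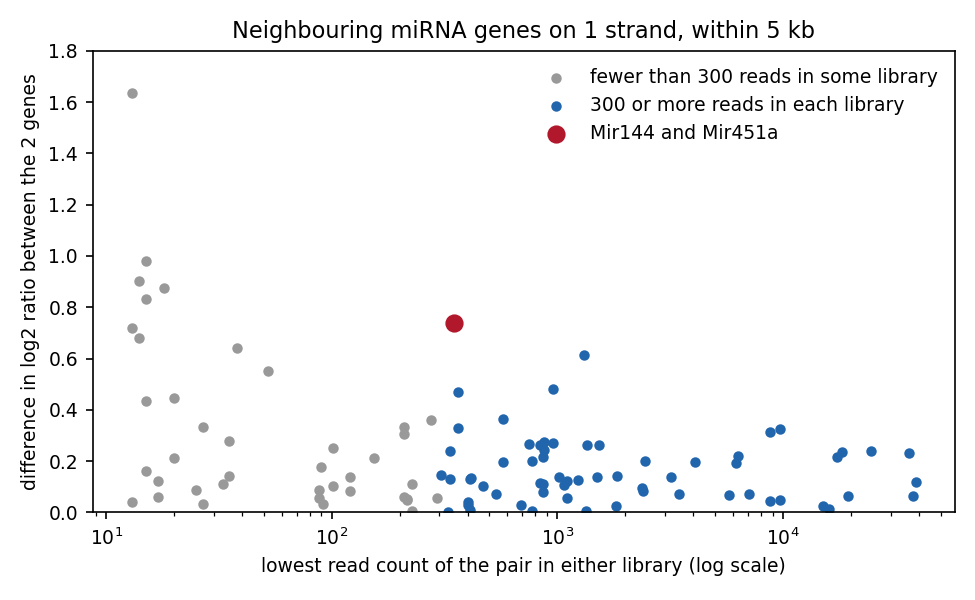
Size of the difference in log2 ratio (replicate 2 over replicate 1) between neighbouring miRNA genes on 1 strand, for 104 pairs, against the lowest read count of the pair on a log scale. Pairs with 300 or more reads are blue, and Mir144 with Mir451a, at 0.74, is in red above every blue pair.

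The makeup of the reads of the 6 members in the pools followed from these values. Mir451a made up 18.1% of the reads of the 6 members in replicate 1 and 24.0% in replicate 2, while the Mir142 reads made up 35.3% and 31.5%. Mir223 held 19.99% and 18.7%, Mir150 11.8% and 13.5%, Mir144 11.02% and 8.75%, and Mir486 3.81% and 3.66%. These shares sum to the whole, so a rise of 1 gene lowers the others.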

How the data were processed

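MicroRNA libraries with inserts below 30 nt had been made from 2 pools of midbrain. The authors deposited raw read counts per miRNA gene, 1 table per library, on mm10 with GENCODE M4, per the deposited description. The aligner and the program that counted are not given in the sources used here. Reads that mapped to several places (35.3% of reads in replicate 1 and 36.5% in replicate 2) and other rows that name no gene (unmapped, 15.6% and 15.2%; in no gene on the sense strand, 3.99% and 4.14%) stayed out. Replicate agreement measures the spread between pools and any technical spread together.

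Symbols and positions came from GENCODE M21 (1894 of 1973 identifiers matched) and sequences from RefSeq (GRCm38.p6). CPM are over summed sense counts; ratios add 0.5 reads to each count. The exact binomial test used scipy 1.17.1. It was checked only on data simulated with counting error and no spread between libraries. TMM and RLE factors and the exact test at a fixed BCV used edgeR 4.0.16 in R 4.3.3. Other steps used Python 3.11.15, pandas 2.3.3, numpy 2.4.6 and matplotlib 3.10.9. The members and lists were chosen with earlier results of these data known. Genes named were the members, the listed genes, neighbours in level, seed matches and genes on the other strand; the genes of the next widest pair were named after their values were seen. Mir451b, Mir3107, Mir142, Mir126b, Mir101c and Mir9-1 were not analysed here as rows of their own. Alternatives covered scaling, denominator, strand, filter on low counts, test and leaving out a library.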

Additional observations from a re-analysis of the deposited data

Results flagged for a closer look

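Some reads lay on the strand opposite to a member and entered only the either-strand alternative, not the levels or comparisons as reported, yet numbered more than the 3 that a count of 0 allows. At Mir486 there were 5 such reads in replicate 1 and 11 in replicate 2, or 3.07% and 7.01% of the reads there on either strand, at the place where Mir3107 is annotated. At Mir150 there were 5 in replicate 1 and 0 in replicate 2, with no gene annotated on the other strand within its span.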

How the results depend on the processing

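Of 81 values recomputed under alternatives that kept both libraries, 63 kept their direction and call, or moved by less than 1 SD between the libraries. Some of these could not move. A filter on low counts leaves each log2 ratio as it was, and Mir451a and Mir144 have no opposite-strand reads to change their ratio. TMM and RLE scaling gave nearly the same factors. Scaled to all reads of a table, with unmapped and multiply mapped reads in the denominator, the median level of the 6 members was 50.8 in place of 114 CPM, and their summed share was 0.0318% in place of 0.0713%; a larger denominator lowers both by construction. Without Mir142b, the summed share was 0.0475%. When the BCV was set to 0.1 or 0.2 in the exact test of edgeR, 0 members differed between the libraries in place of 2. Over the alternatives the adjusted p ran from 1.87e-17 to 1 for Mir451a and from 3.93e-05 to 1 for Mir150. The log2 ratio of the Mir142 reads, -0.01, turned to 0.04 with TMM scaling (0.0380) and with RLE scaling (0.0381). Leaving out each library in turn gave a median level of 101 to 121 CPM, a ratio of Mir451a to Mir144 of 1.64 to 2.74 and a summed share of 0.0674% to 0.0751%. That ratio without replicate 2 was 1.64 and without replicate 1 was 2.74, so it rests on which pool is used. The differences between libraries could not be recomputed with 1 library left out. Depth did not limit detection of the members, whose lowest count was 146 reads.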
